A study of Mus musculus with 12 samples.

Results

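MHC class I antigen presentation was followed through 10 genes that were chosen by name: the heavy chains H2-K1, H2-D1 and H2-T23, the light chain B2m, the peptide transporter subunits Tap1 and Tap2, the loading factor Tapbp, and the inducible proteasome subunits Psmb8, Psmb9 and Psmb10. All 10 symbols matched an Ensembl gene ID among the 55335 gene rows of the count files, and all 10 passed the filter on low counts that kept 16597 genes for testing.

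Class I molecules show short peptides from inside a cell to CD8 T cells and natural killer cells. Proteasomes cut cytosolic proteins into peptides, the TAP transporter pumps them into the endoplasmic reticulum, and tapasin holds an empty heavy chain and its beta-2 microglobulin partner beside TAP until a peptide fits. Interferons raise most of these genes in many cell types, and the inducible proteasome subunits then take the place of constitutive ones in newly built proteasomes.

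The study measured RNA in fibro-adipogenic progenitors (FAPs), mesenchymal cells of mouse limb muscle that were sorted as lineage negative, Vcam negative and Sca1 positive and then cultured with 20% fetal bovine serum. Smn1OE_K186R cells were treated with 1 µM 4-hydroxytamoxifen (4-OHT) to delete Bap1 and were given an expression vector for SMN with the K186R change, and in Smn1OE cells the same deletion was combined with a vector for unmutated SMN. Bap1KO cells received 4-OHT alone, and WT cells received ethanol. The series' design text names downstream targets of Bap1, a nuclear deubiquitinase, and of SMN, a protein that assembles splicing ribonucleoproteins, as what was sought. The SMN constructs were human according to the treatment text. An empty-vector group and a group with 4-OHT but intact Bap1 were not among the samples. The source labels name a Prrx1Cre driver, active in limb mesenchyme, and floxed Bap1 alleles (Bap1f/f), whereas the treatment text names Rosa-CreER. Animal age is not given in the labels, nor is the mouse strain or the H2 haplotype, on which the sequence of the heavy chains depends.

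Each group had 3 libraries, with 51198342 to 68216089 counts in genes. The labels do not say whether the replicates came from separate animals or cultures, so the p-values measure the spread between these libraries. Bap1 averaged 45.3 ± 3.15 CPM (counts scaled to a common library size by TMM) in Smn1OE_K186R cells, 49.1 ± 1.4 CPM in Smn1OE cells, 40.3 ± 1.74 CPM in Bap1KO cells and 50.5 ± 1.32 CPM in WT cells (SD, n = 3 each). The labels also give Bap1 as deleted in the SMN groups, where Smn1OE_K186R lay about midway between Bap1KO and WT and Smn1OE lay nearer to WT, and gene counts do not show which exons were read. Smn1 averaged 3940 ± 363 CPM in Smn1OE_K186R cells, 4760 ± 907 CPM in Smn1OE cells, 32.9 ± 2.31 CPM in Bap1KO cells and 33.6 ± 1.71 CPM in WT cells. These are counts on the mouse gene, although the treatment text names human constructs. The species of the construct sequence was not tested. Xist, read from the inactive X chromosome, was at most 0.113 CPM in the SMN groups and at least 197 CPM in Bap1KO and WT cells, while the Y-linked Eif2s3y was at least 57.9 CPM in the SMN groups and had no count in the others. The SMN groups were also grown in media batches D to F, and Bap1KO and WT cells in batches A to C. When SMN libraries are set against Bap1KO or WT libraries, the vector, the media batch and the sex of the source cells therefore cannot be told apart.

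Promoter sequences are shown for 5 members, from the RefSeq table of GRCm38.p6, because H2-K1 and H2-D1 are close relatives with unlike values below, H2-T23 and Psmb8 differed strongly between groups, and B2m varied least. Each window holds 250 bases before and 50 bases after the annotated start, written 5′ to 3′ on the gene's strand. Capitals mark, on either strand, the kappaB palindrome of the class I enhancer A, the interferon-stimulated response element core (GAAA, 2 bases of any kind, GAAA), the interferon gamma-activated site TTCNNNGAA, and CCAAT. No marked match overlaps another. The windows lie at chr17:34000298-34000597 on the minus strand for H2-K1, chr17:35262844-35263143 on the plus strand for H2-D1, chr17:36032652-36032951 on the minus strand for H2-T23, chr2:122147437-122147736 on the plus strand for B2m and chr17:34197945-34198244 on the plus strand for Psmb8.
H2-K1: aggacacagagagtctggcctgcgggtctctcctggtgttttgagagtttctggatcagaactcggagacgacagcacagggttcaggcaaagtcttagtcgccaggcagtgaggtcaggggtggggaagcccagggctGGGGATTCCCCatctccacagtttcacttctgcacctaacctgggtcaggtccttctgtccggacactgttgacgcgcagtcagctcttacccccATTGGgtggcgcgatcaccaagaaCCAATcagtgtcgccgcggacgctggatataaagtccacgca
H2-D1: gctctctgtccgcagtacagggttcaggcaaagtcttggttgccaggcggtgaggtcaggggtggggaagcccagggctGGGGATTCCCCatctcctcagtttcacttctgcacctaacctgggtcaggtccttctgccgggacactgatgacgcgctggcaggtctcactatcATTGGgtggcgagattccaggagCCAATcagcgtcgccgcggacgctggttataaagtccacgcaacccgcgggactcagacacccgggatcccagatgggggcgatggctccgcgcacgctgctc
H2-T23: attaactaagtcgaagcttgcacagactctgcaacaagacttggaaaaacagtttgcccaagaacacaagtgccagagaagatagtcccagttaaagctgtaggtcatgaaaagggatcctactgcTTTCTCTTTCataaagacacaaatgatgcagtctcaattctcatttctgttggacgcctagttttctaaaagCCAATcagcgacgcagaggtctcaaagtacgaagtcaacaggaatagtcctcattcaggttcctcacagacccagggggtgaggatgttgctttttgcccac
B2m: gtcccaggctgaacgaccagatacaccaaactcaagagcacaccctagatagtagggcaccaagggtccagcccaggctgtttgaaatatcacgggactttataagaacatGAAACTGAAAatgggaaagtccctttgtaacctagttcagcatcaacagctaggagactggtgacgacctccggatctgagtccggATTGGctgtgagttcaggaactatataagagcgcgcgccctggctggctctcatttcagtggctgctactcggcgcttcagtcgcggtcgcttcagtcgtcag
Psmb8: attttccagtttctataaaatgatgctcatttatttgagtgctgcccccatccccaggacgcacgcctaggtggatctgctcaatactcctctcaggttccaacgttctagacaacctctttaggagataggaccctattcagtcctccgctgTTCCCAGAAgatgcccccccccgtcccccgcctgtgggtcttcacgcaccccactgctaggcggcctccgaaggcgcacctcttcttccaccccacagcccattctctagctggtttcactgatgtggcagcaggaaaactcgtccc

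The kappaB palindrome, the first capitals in the windows of H2-K1 and H2-D1, occurred in 0.0304% of all 32851 promoter windows in the table, those of 9 genes that also include H2-Q6. H2-K1 and H2-D1 shared 176 of 240 aligned bases, or 73.3%, once the windows were shifted to their best match. No gaps were allowed, so bases beyond an insertion or deletion count as unlike. RefSeq gives 2 windows for H2-K1, of which the first is shown and compared. The response element core was found in H2-T23 and B2m, against 3.44% of all windows, and the activated site in Psmb8, against 8.30%. Only the letters given above were searched, so a window without a match may still hold a variant of either site. CCAAT, found in 37.4% of all windows, was present in 7 of the 9 members with a window and absent from those of Psmb8 and Psmb10. The windows of Tap1 and Psmb9, which are read from opposite strands, share 275 of their 300 bases. Tap2 had no window.

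Messenger RNA of all 10 members was detected in every library, at very different levels. Per kilobase of exon, B2m was the highest member, with 351 ± 15.4 CPM per kb in Smn1OE_K186R cells, 370 ± 27.2 in Smn1OE cells, 357 ± 46.8 in Bap1KO cells and 434 ± 31.2 in WT cells. The heavy chain H2-D1 was next, with 39.5 ± 8.39, 41.3 ± 5.39, 46.9 ± 4.64 and 46.2 ± 3.63 CPM per kb in the same order of groups. At the low end Psmb9 had 0.104 ± 0.0216, 0.124 ± 0.0627, 0.313 ± 0.269 and 0.237 ± 0.0556 CPM per kb. From its highest to its lowest library, B2m varied by 1.52-fold, H2-D1 by 1.72-fold and Psmb10 by 1.8-fold, whereas H2-T23 varied by 6.65-fold, Psmb9 by 7.84-fold and Psmb8 by 30.8-fold. The folds of Psmb8 and Psmb9 rest on few reads. Their lowest libraries held 13 counts of Psmb8, in Smn1OE replicate 3, and 20 of Psmb9, in Smn1OE_K186R replicate 2.

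**Figure D1:**
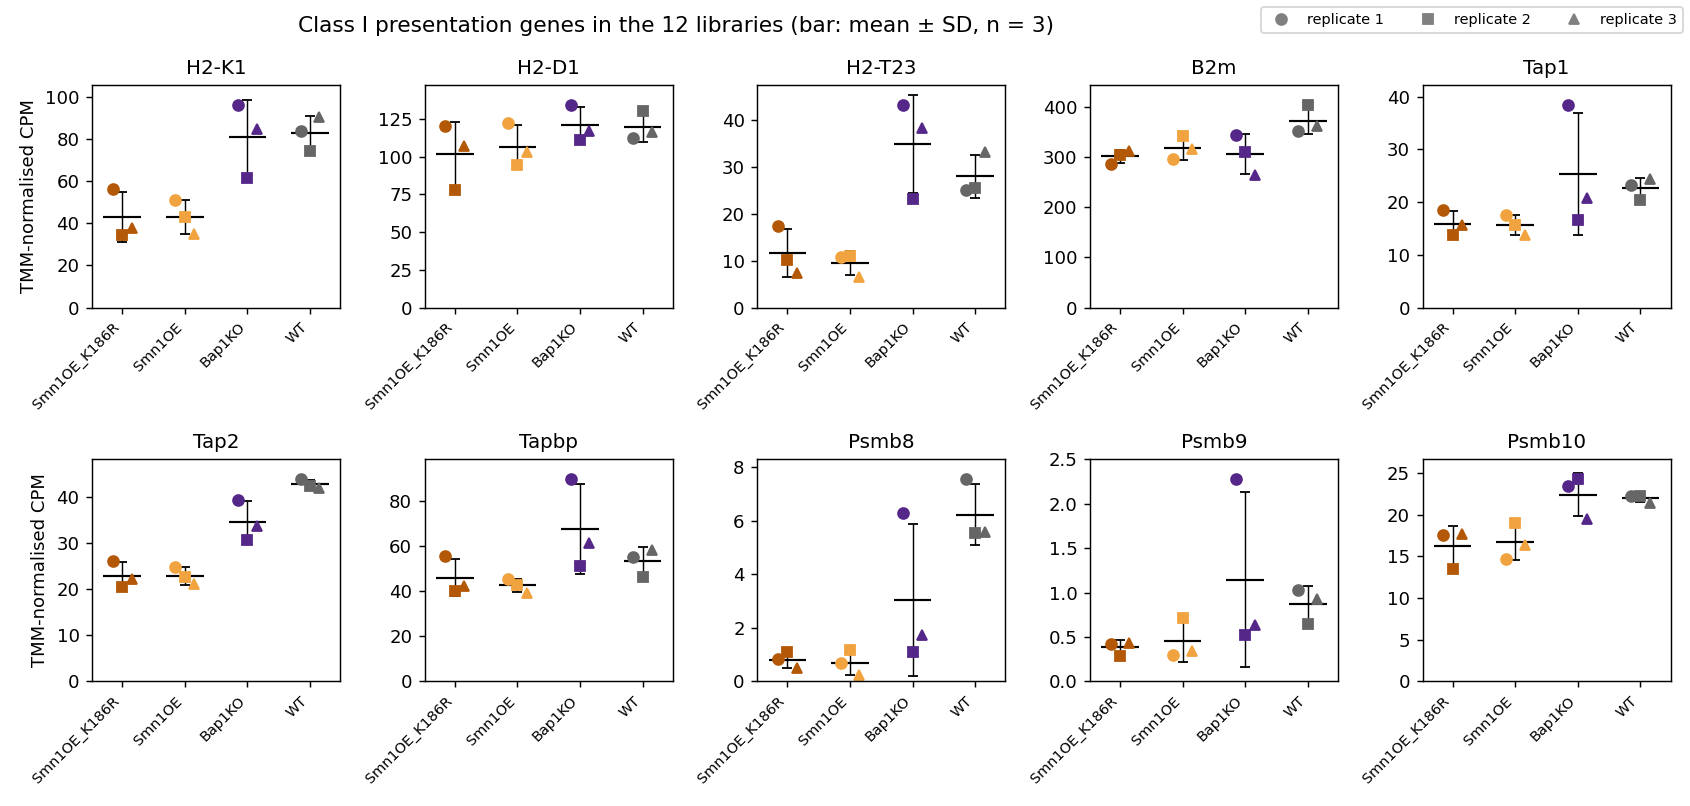
TMM-normalised CPM of each member in the 12 libraries, by group, with replicates as separate symbols and the mean and SD of 3 libraries as bars. H2-T23 runs from 6.49 to 17.4 CPM in the SMN groups and from 23.2 to 43.2 CPM in Bap1KO and WT cells, while H2-D1 and B2m overlap between the SMN groups and Bap1KO.

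Against Bap1KO, 7 of 10 members were lower in Smn1OE_K186R cells and 7 of 10 in Smn1OE cells (edgeR quasi-likelihood test, adjusted p under 0.05 over all genes tested), and none was higher. Over all genes, 16.5% were lower and 16.1% higher in Smn1OE_K186R cells, and 17.7% were lower and 15.8% higher in Smn1OE cells. The median log2 fold change of the members was -0.63 in Smn1OE_K186R cells and -0.68 in Smn1OE cells, beside -0.01 over all genes in both comparisons. In each comparison 5 members had all 3 SMN libraries below all 3 Bap1KO libraries, beside 22% of all genes for Smn1OE_K186R and 24.7% for Smn1OE. These counts changed when single libraries were left out, and so did the number of all genes called, given in the closing section. The changes are therefore not read as particular to the members or to a library. Without Bap1KO replicate 1, 3 members were called in each comparison, H2-K1, H2-T23 and Tap2. Without Smn1OE replicate 1 or 3 there were 4 and 3 calls in Smn1OE against Bap1KO, and without Smn1OE_K186R replicate 2 or 3 there were 3 and 4 in Smn1OE_K186R against Bap1KO. With only the 2 groups in the fit 3 members were called in Smn1OE_K186R and 5 in Smn1OE, and with media batch as a random effect in limma's voom fit the calls of Psmb8 and Psmb9 in Smn1OE_K186R and of Tap1 and Psmb8 in Smn1OE were lost. In bulk RNA, fewer cells of a type and less RNA per cell cannot be told apart.

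Against WT, 6 of 10 members were lower in Smn1OE_K186R cells and 5 of 10 in Smn1OE cells, and none was higher. Over all genes, 26.5% were lower and 24% higher in Smn1OE_K186R cells, and 26.6% were lower and 23.8% higher in Smn1OE cells. The medians were -0.70 in Smn1OE_K186R cells and -0.72 in Smn1OE cells on the log2 scale, beside -0.02 over all genes in both. In each comparison 8 members had all SMN libraries below all WT libraries, beside 30.9% of all genes for Smn1OE_K186R and 32.7% for Smn1OE. The 2 SMN groups were set against the same Bap1KO and WT libraries, so these counts are not independent of each other.

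**Figure D2:**
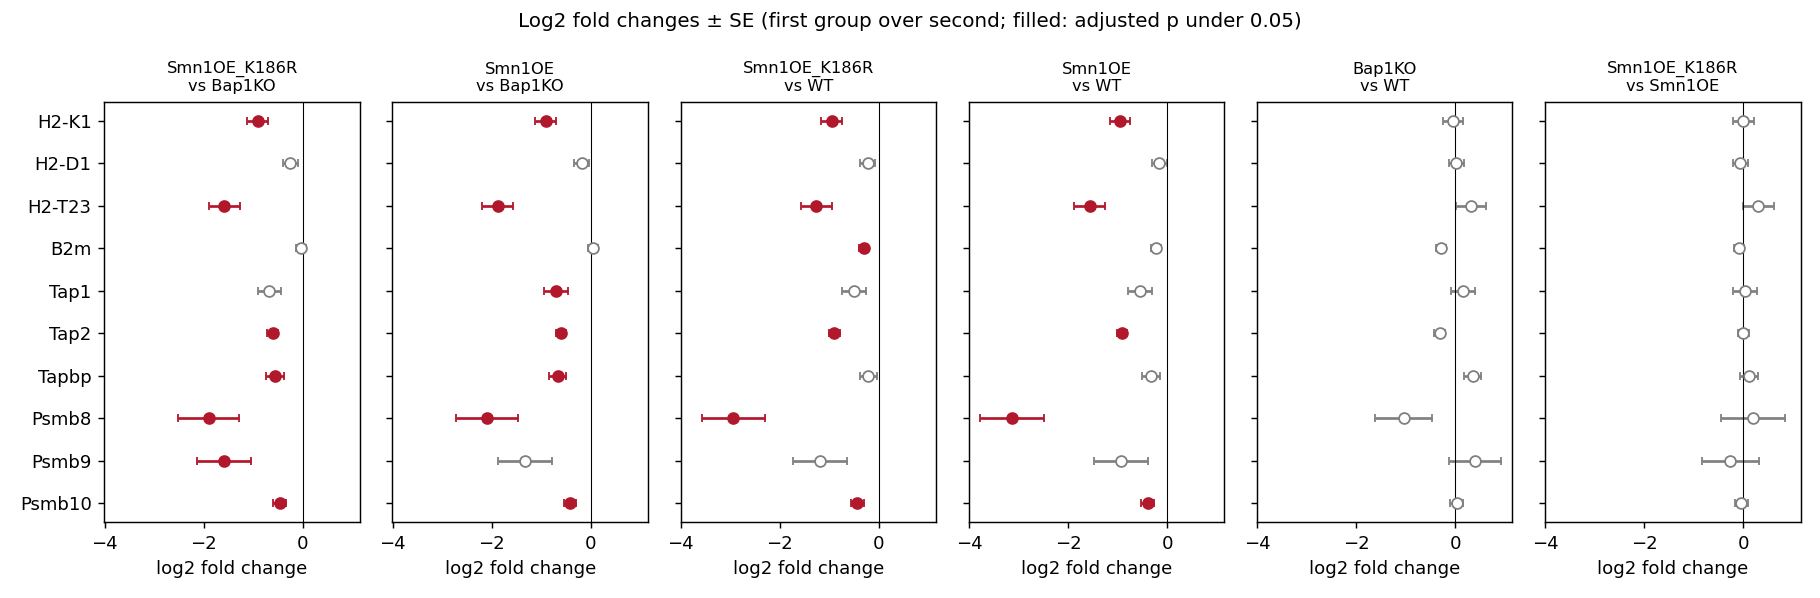
Log2 fold changes of the 10 members with their standard errors, first group over second, in 6 comparisons. Filled points passed an adjusted p of 0.05: they lie left of 0 for 7 members in both SMN groups against Bap1KO, for 6 and 5 members against WT, and for no member in the last 2 panels.

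Of the 3 heavy chains, which hold the peptide, H2-K1 and H2-T23 were lower in both SMN groups against Bap1KO and WT, and H2-D1 did not pass the test in any of these comparisons. The heavy chains differ in sequence between mouse strains, so their reads may align differently in the SMN groups, whose cells came from other source animals than those of Bap1KO and WT as the sex-linked genes show, and this was not tested. H2-K1 (ENSMUSG00000061232, chromosome 17), a classical class I molecule that presents peptides to CD8 T cells, had 56.5, 34.3 and 37.8 CPM in Smn1OE_K186R cells, 51.1, 42.9 and 34.7 CPM in Smn1OE cells, 96.1, 61.3 and 85 CPM in Bap1KO cells and 83.7, 74.4 and 90.7 CPM in WT cells. Every SMN library was below every Bap1KO and WT library. The log2 fold change against Bap1KO was -0.91 ± 0.21 in Smn1OE_K186R cells (SE; edgeR adjusted p = 0.00667) and -0.91 ± 0.21 in Smn1OE cells (edgeR adjusted p = 0.00621).

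H2-D1 (ENSMUSG00000073411, chromosome 17), the other classical chain measured, had 120, 78 and 107 CPM in Smn1OE_K186R cells, 122, 94.6 and 103 CPM in Smn1OE cells, 134, 111 and 117 CPM in Bap1KO cells and 112, 130 and 116 CPM in WT cells. The groups overlapped. Its log2 difference from Bap1KO was -0.25 ± 0.15 in Smn1OE_K186R cells (edgeR adjusted p = 0.211) and -0.18 ± 0.15 in Smn1OE cells (edgeR adjusted p = 0.355), which does not show that its level was equal.

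The ratio of H2-K1 to H2-D1 counts was 0.470, 0.440 and 0.352 in Smn1OE_K186R libraries, 0.420, 0.454 and 0.337 in Smn1OE libraries, 0.716, 0.551 and 0.726 in Bap1KO libraries and 0.746, 0.573 and 0.785 in WT libraries. All 6 SMN libraries lay below all 6 others, with the same limit on alignment. For each SMN group against Bap1KO or WT the 2-sided exact permutation p was 0.1, the smallest that 3 libraries against 3 allow (0.15 after adjustment over the 6 comparisons), with log2 differences from Bap1KO of -0.66 in Smn1OE_K186R cells and -0.72 in Smn1OE cells.

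H2-T23 (ENSMUSG00000067212, chromosome 17) encodes Qa-1, a non-classical molecule that presents leader peptides of other class I chains to receptors of natural killer cells. It had 17.4, 10.2 and 7.36 CPM in Smn1OE_K186R cells, 10.8, 11.1 and 6.49 CPM in Smn1OE cells, 43.2, 23.2 and 38.4 CPM in Bap1KO cells and 25.2, 25.6 and 33.2 CPM in WT cells. No SMN library reached the lowest Bap1KO or WT library. Its log2 fold change against Bap1KO was -1.58 ± 0.31 in Smn1OE_K186R cells (edgeR adjusted p = 0.00356) and -1.88 ± 0.32 in Smn1OE cells (edgeR adjusted p = 0.00143). Against WT it was -1.26 ± 0.31 in Smn1OE_K186R cells and -1.56 ± 0.31 in Smn1OE cells (edgeR adjusted p = 0.00525 and 0.00155).

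Class I heavy chains share sequence, and the count files list 5.05 to 5.76% of their records as not uniquely aligned and 1.79 to 2.21% as ambiguous between genes. In the longest annotated transcript, 8.11% of the 50-base stretches of H2-K1, 14.3% of those of H2-D1 and 15% of those of H2-T23 also occurred in another gene, whereas B2m, Psmb8, Psmb9 and Psmb10 shared none. At 100 bases the shares were 0% for H2-K1, 4.64% for H2-D1 and 3.93% for H2-T23. Summing the counts of 31 heavy chain genes into 1 feature adds up the reads that were assigned to each of them. Reads listed as not uniquely aligned or as ambiguous are not in these counts, and the sum does not recover them. The sum was 251 ± 54.2 CPM in Smn1OE_K186R cells, 244 ± 34.5 CPM in Smn1OE cells, 378 ± 56.7 CPM in Bap1KO cells and 336 ± 9.51 CPM in WT cells, with a log2 fold change against Bap1KO of -0.59 ± 0.15 in Smn1OE_K186R cells (edgeR adjusted p = 0.0124) and -0.63 ± 0.15 in Smn1OE cells (edgeR adjusted p = 0.00891). Against WT it was -0.42 ± 0.15 in Smn1OE_K186R cells and -0.46 ± 0.15 in Smn1OE cells (edgeR adjusted p = 0.0349 and 0.0240).

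Per kilobase, H2-D1 made up 42.4 to 50.9% of the summed heavy chains in Smn1OE_K186R libraries, 43.6 to 53.6% in Smn1OE libraries, 35 to 39.2% in Bap1KO libraries and 36.8 to 43.1% in WT libraries. H2-T23 made up 3.12 to 5.57% in Smn1OE_K186R libraries, 3.02 to 4.57% in Smn1OE libraries, 7.30 to 10.3% in Bap1KO libraries and 7.57 to 9.43% in WT libraries. The share of H2-T23 thus separated the SMN groups from the others without overlap, and that of H2-D1 separated them from Bap1KO. H2-T22, a non-classical chain, made up 28.6 to 31.5% in Bap1KO libraries and 22.5 to 24% in WT libraries, and averaged 130 ± 14.1 CPM in Bap1KO cells against 93 ± 1.49 CPM in WT cells (log2 difference 0.48 ± 0.15, edgeR adjusted p = 0.0662).

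B2m (ENSMUSG00000060802, chromosome 2), the light chain that every class I molecule needs, had 287, 305 and 313 CPM in Smn1OE_K186R cells, 296, 342 and 317 CPM in Smn1OE cells, 345, 310 and 265 CPM in Bap1KO cells and 353, 404 and 363 CPM in WT cells. The SMN and Bap1KO libraries overlapped, and all 9 lay below the lowest WT library. Its log2 difference from WT was -0.31 ± 0.10 in Smn1OE_K186R cells (edgeR adjusted p = 0.0214) and -0.23 ± 0.10 in Smn1OE cells (edgeR adjusted p = 0.0708). The call in Smn1OE_K186R was lost without its replicate 1 or without WT replicate 2, with adjusted p up to 0.0829. Set against the summed heavy chains per kilobase, B2m was 3.09 to 4.96 times as abundant in Smn1OE_K186R libraries, 3.52 to 4.94 times in Smn1OE libraries, 2.39 to 3.28 times in Bap1KO libraries and 3.47 to 4.02 times in WT libraries.

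The TAP transporter is a dimer of Tap1 (ENSMUSG00000037321) and Tap2 (ENSMUSG00000024339), both on chromosome 17. Tap2 had 26.2, 20.4 and 22.2 CPM in Smn1OE_K186R cells, 24.9, 22.7 and 21.1 CPM in Smn1OE cells, 39.5, 30.8 and 33.7 CPM in Bap1KO cells and 44, 42.5 and 42.1 CPM in WT cells. The SMN groups lay below Bap1KO, and Bap1KO below WT, without overlap. Its log2 fold change against Bap1KO was -0.60 ± 0.11 in both Smn1OE_K186R and Smn1OE cells (edgeR adjusted p = 0.00283 and 0.00248), and against WT it was -0.90 ± 0.11 in Smn1OE_K186R cells and -0.91 ± 0.11 in Smn1OE cells (edgeR adjusted p = 8.47e-05 and 8.02e-05).

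Tap1 had 18.5, 13.7 and 15.6 CPM in Smn1OE_K186R cells, 17.5, 15.6 and 13.7 CPM in Smn1OE cells, 38.4, 16.7 and 20.8 CPM in Bap1KO cells and 23.2, 20.5 and 24.3 CPM in WT cells. Bap1KO replicate 1 stood far above the other libraries, and the lowest Bap1KO library lay among the SMN libraries. The log2 difference from Bap1KO was -0.67 ± 0.24 in Smn1OE_K186R cells (edgeR adjusted p = 0.0537) and -0.70 ± 0.24 in Smn1OE cells (edgeR adjusted p = 0.0444), and without that library it was -0.24 and -0.27, with neither passing the test. The call in Smn1OE was also lost without any 1 of the 3 Smn1OE libraries (adjusted p 0.0655 to 0.137), with only the 2 groups in the fit (0.0997) and with the voom random effect (0.0836). Tap1 and Psmb9 overlap in 212 exon bases on opposite strands, and the strand setting of the counting is not given in the sources used here.

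Tapbp (ENSMUSG00000024308, chromosome 17) encodes tapasin, which bridges TAP and the heavy chain. It had 55.5, 40.2 and 42.4 CPM in Smn1OE_K186R cells, 45.5, 42.7 and 39.4 CPM in Smn1OE cells, 89.8, 51.3 and 61.4 CPM in Bap1KO cells and 55.3, 46.1 and 58.1 CPM in WT cells. Bap1KO replicate 1 was again the highest library, and Smn1OE lay below Bap1KO without overlap while Smn1OE_K186R overlapped it. The log2 fold change against Bap1KO was -0.55 ± 0.18 in Smn1OE_K186R cells (edgeR adjusted p = 0.0368) and -0.67 ± 0.18 in Smn1OE cells (edgeR adjusted p = 0.0161). Without Bap1KO replicate 1 the differences were -0.30 and -0.41 and no longer passed, nor did the difference in Smn1OE_K186R with only the 2 groups in the fit (edgeR adjusted p = 0.094). The calls were also lost without Bap1KO replicate 3 or Smn1OE_K186R replicate 2 or 3 in Smn1OE_K186R, and without Smn1OE replicate 3 in Smn1OE. The antisense gene Gm19412 covers 24.9% of the exon bases of Tapbp, Gm15821 14.1% of those of Tap2 and Gm20496 14.7% of those of Psmb8, so reads of these pairs may not be told apart.

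Of the inducible proteasome subunits, Psmb8 (ENSMUSG00000024338, chromosome 17) replaces Psmb5, Psmb9 (ENSMUSG00000096727, chromosome 17) replaces Psmb6, and Psmb10 (ENSMUSG00000031897, chromosome 8) replaces Psmb7. Psmb8 had 0.842, 1.09 and 0.489 CPM in Smn1OE_K186R cells, 0.674, 1.18 and 0.246 CPM in Smn1OE cells, 6.29, 1.08 and 1.72 CPM in Bap1KO cells and 7.57, 5.54 and 5.60 CPM in WT cells. The WT libraries and Bap1KO replicate 1 were high, and the other Bap1KO libraries were near the SMN groups. The log2 fold change of Psmb8 against WT was -2.94 ± 0.64 in Smn1OE_K186R cells (edgeR adjusted p = 0.00246) and -3.13 ± 0.64 in Smn1OE cells (edgeR adjusted p = 0.00178). Against Bap1KO the differences were -1.90 ± 0.62 in Smn1OE_K186R cells and -2.10 ± 0.63 in Smn1OE cells (edgeR adjusted p = 0.0351 and 0.0242), and without Bap1KO replicate 1 they were -0.79 and -0.98 and did not pass. The call against Bap1KO was also lost without any 1 Smn1OE_K186R library, and without Smn1OE replicate 1 or 3, with differences of -1.65 to -2.18. With only the 2 groups in the fit the adjusted p was 0.0658 in Smn1OE_K186R and 0.069 in Smn1OE, and with the voom random effect it was 0.0843 and 0.0527.

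Psmb9 had 0.421, 0.291 and 0.433 CPM in Smn1OE_K186R cells, 0.300, 0.716 and 0.341 CPM in Smn1OE cells, 2.28, 0.518 and 0.635 CPM in Bap1KO cells and 1.03, 0.641 and 0.929 CPM in WT cells. Bap1KO replicate 1 was the highest library, and all Smn1OE_K186R libraries lay below all Bap1KO and WT libraries, whereas Smn1OE overlapped both. It passed the test in Smn1OE_K186R against Bap1KO (log2 fold change -1.59 ± 0.55, edgeR adjusted p = 0.0435), and in that comparison it did not pass without Bap1KO replicate 1 (-0.60, edgeR adjusted p = 0.343) or without any 1 Smn1OE_K186R library. Nor did it pass with only the 2 groups in the fit (edgeR adjusted p = 0.0871) or with the voom random effect (adjusted p = 0.117). Against WT its log2 differences were -1.19 ± 0.55 in Smn1OE_K186R cells and -0.93 ± 0.54 in Smn1OE cells (edgeR adjusted p = 0.0911 and 0.172).

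Psmb10 had 17.6, 13.5 and 17.7 CPM in Smn1OE_K186R cells, 14.7, 19 and 16.4 CPM in Smn1OE cells, 23.4, 24.3 and 19.5 CPM in Bap1KO cells and 22.2, 22.3 and 21.4 CPM in WT cells. Every SMN library was below every Bap1KO and WT library. Its log2 fold change against Bap1KO was -0.46 ± 0.13 in Smn1OE_K186R cells and -0.42 ± 0.13 in Smn1OE cells (edgeR adjusted p = 0.0176 and 0.0262). Both calls were lost without Bap1KO replicate 1 or 2, as were that of Smn1OE_K186R without its replicate 2 and that of Smn1OE without its replicate 1 or 3 (adjusted p up to 0.059 and 0.102), and that of Smn1OE_K186R with only the 2 groups in the fit (0.056). Against WT the call in Smn1OE_K186R was lost without its replicate 2, and that in Smn1OE without its replicate 1 or 3 or any 1 WT library (adjusted p up to 0.0514 and 0.0971).

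The constitutive partners Psmb5, Psmb6 and Psmb7 did not pass the test in either SMN group against Bap1KO. As a share of each inducible and constitutive pair, per kilobase, Psmb8 was 0.105 to 0.330% in Smn1OE_K186R libraries, 0.0544 to 0.261% in Smn1OE libraries, 0.206 to 1.34% in Bap1KO libraries and 1.08 to 1.53% in WT libraries. The share of Psmb10 was far higher, at 14.4 to 15.9%, 12.9 to 16.1%, 16.7 to 19.7% and 17.1 to 18.4% in the same order of groups. Psmb9 was at most 0.611% of its pair, in Bap1KO replicate 1. Bap1KO replicate 1 was high for both Psmb8 and Psmb9, while the Psmb10 shares of all SMN libraries lay below all others.

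**Figure D3:**
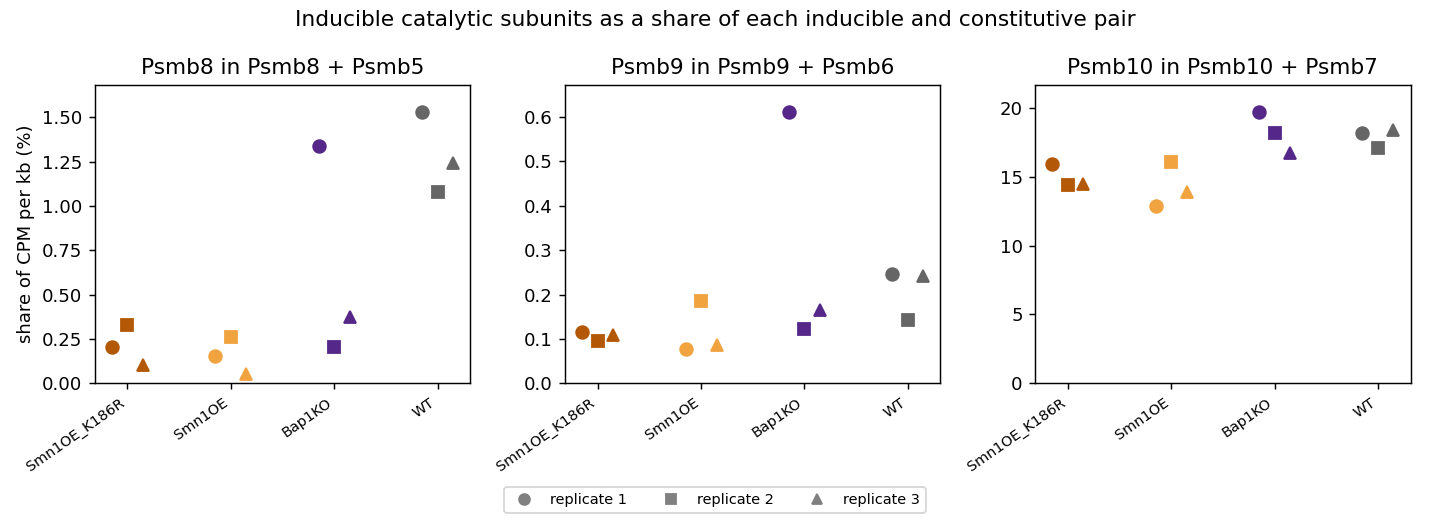
Share of each inducible catalytic subunit in the sum with the constitutive subunit it replaces, from CPM per kb, for the 12 libraries by group. Psmb10 makes up 12.9 to 19.7% of its pair, whereas Psmb8 stays at or below 1.53% and Psmb9 at or below 0.611%, with Bap1KO replicate 1 apart from the other Bap1KO libraries for both.

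In Bap1KO against WT, no member passed edgeR's test without a batch term, beside 9.72% of all genes. At an unadjusted p under 0.05 there were 2 members, B2m and Tap2, which were also the 2 whose Bap1KO libraries all lay below WT (17.8% of all genes did), and DESeq2 called 0. Without Bap1KO replicate 1, the same edgeR test called B2m and Psmb8 lower in Bap1KO (edgeR adjusted p = 0.045 and 0.0238). The closing section gives the range of all genes called when single libraries were left out. Within the media batches, which pair a Bap1KO with a WT library, B2m, Tap2 and Psmb8 were lower in Bap1KO in 3 of 3 batches and Tapbp was higher in 3 of 3. For Psmb8 the log2 differences were -0.27, -2.32 and -1.68 in batches A, B and C. With the batch as a replicate block, 4 members passed, beside 29% of all genes (17.2% lower and 11.9% higher): Psmb8 (-1.37 ± 0.31, edgeR adjusted p = 0.00453), Tap2 (-0.31 ± 0.08, edgeR adjusted p = 0.00806) and B2m (-0.29 ± 0.08, edgeR adjusted p = 0.0118) were lower in Bap1KO, and Tapbp (0.31 ± 0.10, edgeR adjusted p = 0.0381) was higher.

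The 3 heavy chains among the members did not pass. With the replicate block the log2 difference of Bap1KO from WT was -0.06 ± 0.10 for H2-K1, 0.02 ± 0.09 for H2-D1 and 0.29 ± 0.15 for H2-T23, with edgeR adjusted p of 0.712, 0.908 and 0.187. For H2-K1, H2-D1, H2-T23, Tap1, Psmb9 and Psmb10 the batches went in different directions. Batch A, which holds Bap1KO replicate 1, had the highest difference for every member except Psmb10.

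**Figure D4:**
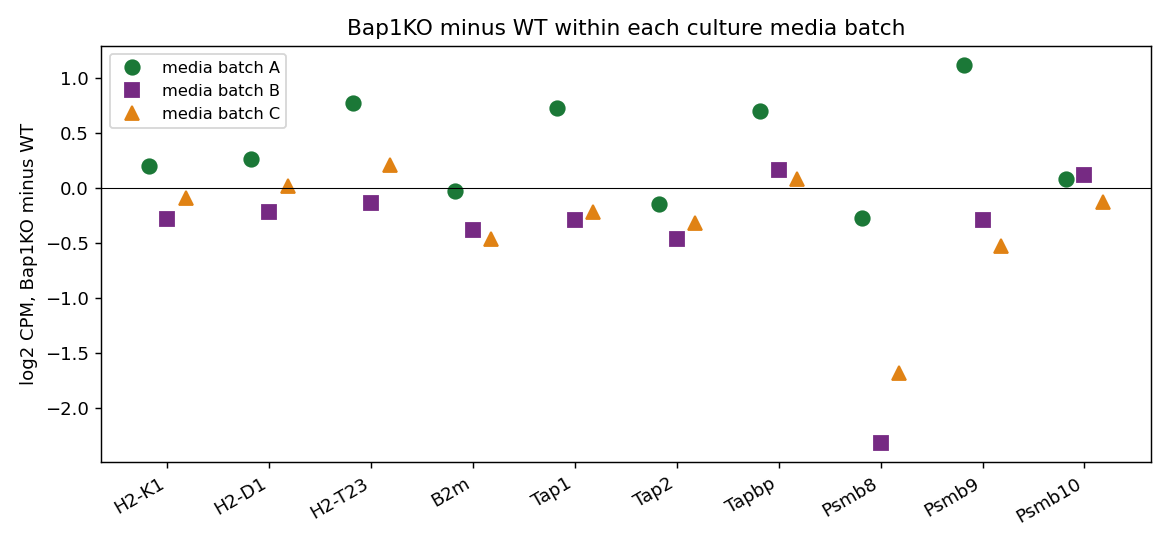
Log2 difference in CPM between Bap1KO and WT within each culture media batch, for the 10 members. Psmb8 lies at -2.32 in batch B and -1.68 in batch C but at -0.27 in batch A, and Tapbp is above 0 in all 3 batches.

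Between the SMN forms, no member differed detectably in Smn1OE_K186R against Smn1OE cells, beside 0% of all genes called by edgeR (388 genes at an unadjusted p under 0.05, and 0 by DESeq2). With the media batch as a replicate block 48 genes passed, 0.289% of those tested, and no member was among them. The log2 differences ran from -0.26 ± 0.57 for Psmb9 to 0.30 ± 0.31 for H2-T23, and those of H2-D1, B2m, Tap2 and Psmb10 had standard errors of 0.15 or less. B2m was lower in Smn1OE_K186R in 3 of 3 batches, by 0.08 ± 0.08 on the log2 scale in the blocked fit (edgeR adjusted p = 0.724).

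Bap1KO replicate 1 was the highest library of its group for 9 of 10 members, all but Psmb10. It was also higher than the other Bap1KO libraries in Irf1, Nlrc5 and the sum of interferon-induced genes. Irf1, a transcription factor that interferon induces and that binds class I promoters, was 13.9 CPM in Bap1KO replicate 1 and 6.59 and 8.78 CPM in the other Bap1KO libraries. WT libraries had 16.7, 13.3 and 15.6 CPM of Irf1, a range that holds the value of Bap1KO replicate 1. Nlrc5, the transactivator of class I promoters, was 2.71 CPM in Bap1KO replicate 1, 0.945 and 0.853 CPM in the other Bap1KO libraries and 0.897, 1.08 and 1.08 CPM in WT libraries. The summed level of 27 interferon-induced genes was 1710 CPM in Bap1KO replicate 1 and 939 and 977 CPM in the other Bap1KO libraries. The WT libraries lay between these values, at 1450, 1360 and 1380 CPM. A large part of each sum was Ly6a, which is also on the list of FAP genes. Ly6a had 871 CPM in Bap1KO replicate 1, 652 and 630 CPM in the other Bap1KO libraries and 929, 898 and 839 CPM in WT libraries. The part of this library's interferon-induced RNA in the members' values was not tested. Member calls that changed without it stand beside the results above.

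Genes that control class I expression were followed in a list of 32. Irf1 averaged 3.55 ± 1.00 CPM in Smn1OE_K186R cells, 3.10 ± 1.24 CPM in Smn1OE cells, 9.77 ± 3.78 CPM in Bap1KO cells and 15.2 ± 1.71 CPM in WT cells. Its log2 fold change against Bap1KO was -1.46 ± 0.32 in Smn1OE_K186R cells and -1.65 ± 0.33 in Smn1OE cells (edgeR adjusted p = 0.00627 and 0.00328), and against WT it was -2.09 ± 0.33 in Smn1OE_K186R cells and -2.28 ± 0.33 in Smn1OE cells (edgeR adjusted p = 0.00033 and 0.000199). Nlrc5 averaged 0.91 ± 0.199, 1.01 ± 0.197, 1.5 ± 1.05 and 1.02 ± 0.107 CPM in the same order of groups and passed in none of the 6 comparisons. Of these 32 genes of class I regulation and interferon signalling, all tested, 10 were lower and 4 higher in Smn1OE_K186R against Bap1KO, where 16.5% of all genes were lower and 16.1% higher. In Smn1OE against Bap1KO 10 were lower and 2 higher, where 17.7% of all genes were lower and 15.8% higher. Without Bap1KO replicate 1, 7 were lower and 3 higher in Smn1OE_K186R, and 9 were lower and 2 higher in Smn1OE. Without Bap1KO replicate 2 or 3, 10 and 9 were lower in Smn1OE_K186R, and 11 and 10 in Smn1OE. In the same fits 1 and 2 were higher in Smn1OE_K186R, and without Bap1KO replicate 3, 3 were higher in Smn1OE. In Bap1KO against WT, Ifngr1, Ifngr2 and Ifnar1, which encode interferon receptor chains, and Rfxap, a subunit of the RFX complex at class I promoters, were lower and Rfx5, another RFX subunit, was higher (log2 fold changes -0.61, -0.29, -0.31, -0.55 and 0.49, edgeR adjusted p of 0.0406 or less). These 4 lower and 1 higher calls were 2 and 0 without Bap1KO replicate 1, 2 and 1 without replicate 2, and 1 and 0 without replicate 3.

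Of 27 interferon-induced genes, 22 were lower in Smn1OE_K186R and 23 in Smn1OE against Bap1KO, beside 16.5% and 17.7% of all genes. Their medians were -2.61 and -2.83 on the log2 scale. Without Bap1KO replicate 1, 2 and 11 of them were lower, and 1 was higher in each comparison. Against WT, 14 were lower and 1 higher in Smn1OE_K186R, and 19 were lower and 0 higher in Smn1OE. Over all genes, 26.5% were lower and 24% higher in Smn1OE_K186R against WT, and 26.6% were lower and 23.8% higher in Smn1OE. In Bap1KO against WT, 1 of the 27 genes was lower, Ly6e, beside 9.72% of all genes called in either direction. The count was 3 without Bap1KO replicate 1 and 0 without replicate 2 or 3. The 8 listed ligand genes, interferons with Il27 and Tnf, summed to at most 0.0899 CPM in any library.

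**Figure D5:**
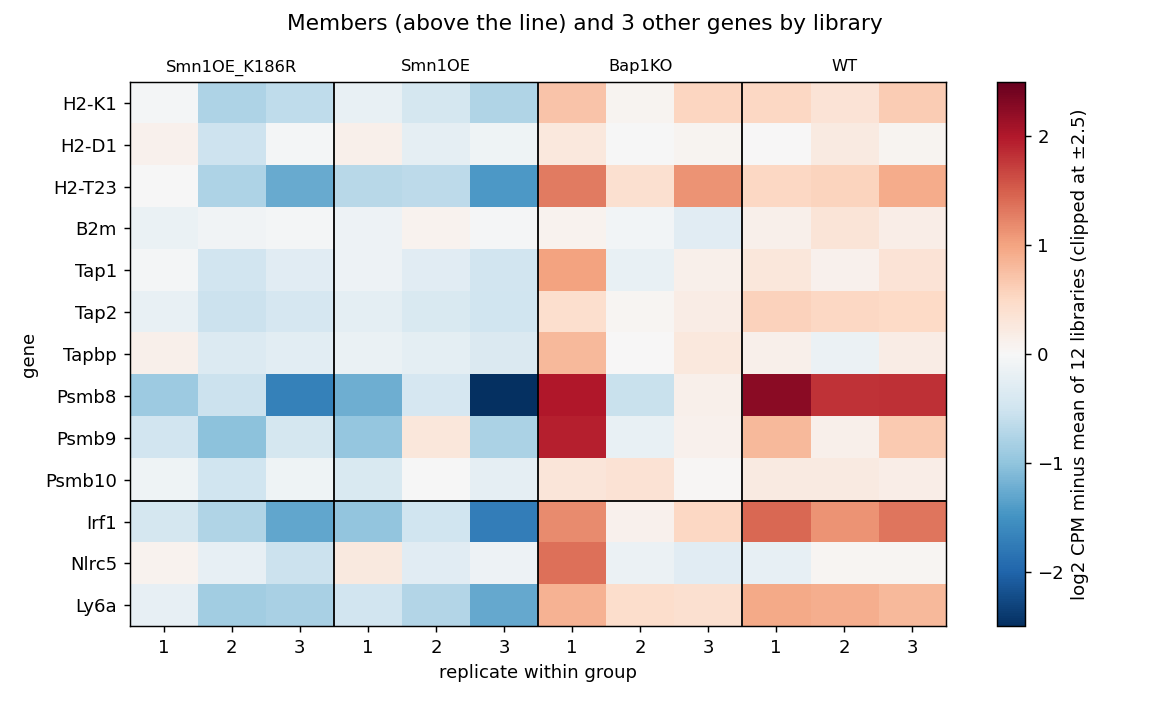
Log2 CPM of the 10 members and of Irf1, Nlrc5 and Ly6a in each library, minus the gene's mean over the 12 libraries, with colours limited to ±2.5. Bap1KO replicate 1 is dark red for Psmb8 and Psmb9, the WT libraries are also dark red for Psmb8, and H2-D1 and B2m stay pale throughout.

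Later steps of peptide loading were followed in 12 genes of the endoplasmic reticulum. Of these, 7 were lower in each SMN group against Bap1KO, with 1 higher in Smn1OE_K186R and 0 in Smn1OE. Over all genes, 16.5% were lower and 16.1% higher in Smn1OE_K186R, and 17.7% were lower and 15.8% higher in Smn1OE. Calr, which encodes the chaperone calreticulin of the peptide-loading complex, averaged 1320 ± 60.1 CPM in Smn1OE_K186R cells, 1330 ± 62.3 CPM in Smn1OE cells, 1950 ± 56.3 CPM in Bap1KO cells and 2300 ± 166 CPM in WT cells. Pdia3, the disulfide isomerase bound to tapasin, averaged 1280 ± 35.6 CPM in Smn1OE_K186R cells and 1280 ± 79.4 CPM in Smn1OE cells, against 1610 ± 74.0 CPM in Bap1KO cells. Canx, the chaperone calnexin, was the exception at 741 ± 41.9 CPM in Smn1OE_K186R cells against 640 ± 11.3 CPM in Bap1KO cells (log2 fold change 0.21 ± 0.07, edgeR adjusted p = 0.0354). Without Bap1KO replicate 1, 5 of the 12 genes were lower in Smn1OE_K186R and 6 in Smn1OE. Without replicate 2 or 3, 6 and 6 were lower in Smn1OE_K186R, and 8 and 7 in Smn1OE. In these fits 0 were higher, so the call of Canx was lost.

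Among 22 other proteasome genes, 5 were lower and 1 higher in Smn1OE_K186R against Bap1KO, and 3 lower and 0 higher in Smn1OE, counts near the 16.5% and 17.7% of all genes that were lower in these comparisons. Without Bap1KO replicate 1, 2 were lower and 0 higher in each, and without replicate 3, 0 were higher in Smn1OE_K186R. Psme1, a subunit of the PA28 activator that interferon induces, had log2 fold changes of -0.80 ± 0.15 in Smn1OE_K186R and -0.65 ± 0.15 in Smn1OE cells (edgeR adjusted p = 0.00287 and 0.00671). It was also lower in Bap1KO than in WT, with a log2 fold change of -0.54 ± 0.15 (edgeR adjusted p = 0.0406), a call that was lost without Bap1KO replicate 2 or 3. Of 9 cytosolic peptidases, which trim or destroy peptides, 1 was lower and 2 higher in Smn1OE_K186R and 1 lower and 1 higher in Smn1OE, shares no larger for the lower calls than those of all genes. Of 12 tested other class I-like chains, 3 were lower in Smn1OE_K186R and 5 in Smn1OE against Bap1KO, and none was higher, beside the same 16.5% and 17.7% of all genes. Without Bap1KO replicate 1 the counts were 1 and 3, and without replicate 3 they were 2 and 4. In Bap1KO against WT 4 of these chains were lower and none higher, beside 9.72% of all genes in either direction: Hfe (-1.05 ± 0.20, edgeR adjusted p = 0.00985), H2-M3 (-0.95 ± 0.20, edgeR adjusted p = 0.0124), Cd1d1 (-0.68 ± 0.14, edgeR adjusted p = 0.0131) and Fcgrt (-0.52 ± 0.12, edgeR adjusted p = 0.0217). Fcgrt, the neonatal Fc receptor chain that also pairs with B2m, had the smallest p of that list in both SMN groups against Bap1KO, with 37.7 ± 3.98 CPM in Smn1OE_K186R cells, 37.4 ± 4.84 CPM in Smn1OE cells, 81.3 ± 12.5 CPM in Bap1KO cells and 116 ± 4.29 CPM in WT cells.

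Among markers of other cells, the 12 macrophage genes summed to 22.4 to 30.9 CPM in Smn1OE_K186R, 23 to 28.6 CPM in Smn1OE, 28.8 to 36.6 CPM in Bap1KO and 26.9 to 32.7 CPM in WT libraries, with Tyrobp, C1qa and C1qb without a count in Bap1KO and Smn1OE cells. Of the 6 macrophage genes tested, 2 were higher and 2 lower in each SMN group against Bap1KO. Cd68, a lysosomal protein, averaged 8.94 ± 1.41 CPM in Smn1OE_K186R cells and 10.8 ± 2.24 CPM in Smn1OE cells against 4.86 ± 0.865 CPM in Bap1KO cells, and Ptprc, the pan-leukocyte marker CD45, averaged 0.105 ± 0.0943 CPM and 0.272 ± 0.0684 CPM against 0.00508 ± 0.0088 CPM (edgeR adjusted p = 0.0117 and 0.00308 for Cd68, 0.0269 and 0.00432 for Ptprc). Csf1r, the receptor for macrophage colony-stimulating factor, was lower, at 9.04 ± 3.17 CPM in Smn1OE_K186R cells and 7.01 ± 2.25 CPM in Smn1OE cells against 16.9 ± 4.1 CPM in Bap1KO cells. The part of these markers in the members' values was not tested. The 9 T and natural killer cell genes summed to at most 3.10 CPM, and the 8 dendritic and B cell genes to at most 0.451 CPM. The 10 FAP genes were all tested, and they summed to 4230 to 5910 CPM in Smn1OE_K186R, 3570 to 5420 CPM in Smn1OE, 9090 to 15900 CPM in Bap1KO and 14300 to 20700 CPM in WT libraries. Of these FAP genes, 5 were lower and 1 higher in Smn1OE_K186R, and 7 lower and 1 higher in Smn1OE, against Bap1KO. Over all genes, 16.5% were lower and 16.1% higher in Smn1OE_K186R, and 17.7% were lower and 15.8% higher in Smn1OE. Bap1KO replicate 2, the lowest of its group for 8 members, also had the lowest FAP sum of its group. The part of this shift of FAP genes in the members' values was not tested.

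Over the 12 libraries, each member's centred log2 profile was set against the mean profile of all 10. H2-K1 (root mean square difference 0.16), Tap2 (0.17) and Tap1 (0.19) lay closest to that mean, and Psmb8 (1.07) lay farthest. Among the 8 genes outside the members with the nearest profiles were Tnfrsf1a (0.12), Txndc12 and Pgghg (0.13 each), Ctdsp2, Lmf1 and Snai1 (0.14 each) and Cdc42ep1 (0.15), a description of these libraries that all share groups and batches. Tnfrsf1a, the receptor 1 gene for tumour necrosis factor, averaged 173 ± 27.0 CPM in Smn1OE_K186R cells, 168 ± 25.3 CPM in Smn1OE cells, 288 ± 52.9 CPM in Bap1KO cells and 324 ± 25.1 CPM in WT cells.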

How the data were processed

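RNA was measured in 12 libraries of cultured FAPs, 4 groups of 3, grouped by the genotype labels. The deposited files hold raw read counts per Ensembl gene ID, made by the authors; per the submitters' processing notes reads were handled with STAR 2.6.1, HTSeq 0.9.1, CASAVA 1.8.2, cutadapt 1.4.2 and DESeq2 on GRCm39, while annotation release and strand setting are not given in the sources used here. The 5 closing rows of each file, 11.1 to 14.6% of its records, name no gene and were left out. Symbols and exon lengths came from GENCODE M21, which matched 55154 of 55335 IDs; promoters came from RefSeq GRCm38.p6. Counts were scaled by TMM, filtered with filterByExpr (minimum count 10) and fitted with edgeR 4.0.16 quasi-likelihood (R 4.3.3) over all 4 groups, with Benjamini-Hochberg adjustment over 16597 genes. DESeq2 1.42.0, RLE scaling, no filter, 2-group fits, leave-one-out, replicate blocks and limma 3.58.1 voom were alternatives. All 10 members are named in each comparison, of each list at most 4 called genes with the smallest p, and the 8 genes nearest to the members' mean profile (some genes under these rules are not reported here); H2-T22, Rfx5, Canx, Cd68, Ptprc and Csf1r were also named where that rule did not, after their values were seen. The members and lists were chosen with earlier results of these data known. The fits were tested on simulated data. Libraries with the same replicate number share a media batch in the labels between Bap1KO and WT, and between the SMN groups. They are paired only there, because the SMN groups were in other batches than Bap1KO and WT. Deviations from the group means correlated at 0.24 to 0.43 between same-batch libraries and at -0.35 to 0.05 in other pairs. Because each group was centred on its own mean, positive same-batch values push the other pairs lower, so the gap between them was partly fixed in advance.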

Additional observations from a re-analysis of the deposited data

How the results depend on the processing

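H2-K1, H2-T23 and Tap2 kept their calls in each SMN group against Bap1KO and against WT under every alternative run, as did Psmb8 against WT. The replicate block as a model term changed the count in Bap1KO against WT to 4814 genes and 4 members, and the count in Smn1OE_K186R against Smn1OE to 48 genes; it changed no other member call. DESeq2 gave 2595 genes in Bap1KO against WT. With only the 2 groups in the fit, Smn1OE_K186R against Bap1KO gave 3462 genes and 3 members. The cause of these shifts was not tested. Leaving out 1 library each gave 535 to 1457 genes and 0 to 2 members in Bap1KO against WT, 3385 to 5309 genes and 3 to 7 members in Smn1OE_K186R against Bap1KO, and 3512 to 5627 genes and 3 to 7 members in Smn1OE against Bap1KO. The same omissions turned the sign of uncalled log2 differences. In Bap1KO against WT they ranged from -0.17 to 0.13 for H2-K1, -0.05 to 0.09 for H2-D1, -0.26 to 0.39 for Tap1, -0.58 to 0.75 for Psmb9 and -0.03 to 0.12 for Psmb10. For B2m they ranged from -0.13 to 0.06 in Smn1OE_K186R and -0.05 to 0.14 in Smn1OE against Bap1KO. In Smn1OE_K186R against Smn1OE they ranged from -0.25 to 0.14 for H2-K1, -0.20 to 0.10 for H2-D1, -0.10 to 0.54 for H2-T23, -0.09 to 0.13 for Tap1, -0.10 to 0.08 for Tap2, -0.04 to 0.20 for Tapbp, -0.19 to 0.79 for Psmb8, -0.49 to 0.25 for Psmb9 and -0.13 to 0.07 for Psmb10. Tap2 in that comparison was 0.0024 as reported, -0.00095 with RLE size factors, -0.0011 with DESeq2, -0.00086 with only the 2 groups in the fit and -0.002 with the replicate block. Media batch as a random effect in voom ended the calls of Tap1 and Psmb8 in Smn1OE and of Psmb8 and Psmb9 in Smn1OE_K186R against Bap1KO (adjusted p = 0.0836, 0.0527, 0.0843 and 0.117). Counts of the gene lists without single Bap1KO libraries were added after seeing the data. The share of all genes called in each of those fits is not given beside them.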
